A study of Saccharomyces cerevisiae with 12 samples.

Results

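The data described here are the response of MATα-playing-a cells to the mating pheromone α-factor: 3 libraries of stimulated cells against 3 libraries of unstimulated cells of strain LBHY29 of Saccharomyces cerevisiae, budding yeast. The genes compared were those whose mean over these 6 libraries reached 1 FPKM (fragments scaled by gene length and library size). They came to 6602 of the 7126 genes listed, and 502 of the other genes were at 0 in all 6 libraries. ECM11, at a mean of 1.02 FPKM, lay just inside this limit, and PAU18 and PAU6, both at 0.949 FPKM, just outside it. The whole series holds 12 libraries, and the remaining 6 are of MATa cells of strain MP 384 with and without α-factor. Both strains were grown at 30 °C to log phase in YPD, a rich glucose medium, with 0.1% BSA, and an unstimulated sample was taken. The rest of the culture then had 10 nM α-factor for 2 h. The stimulated cells had therefore also been in culture for 2 h longer, and effects of the α-factor and of this added time cannot be told apart. Each group held 3 biological replicates, and each cell type was 1 strain. The labels give no genotype beyond these names.

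Haploid yeast cells come as a cells and α cells. An a cell carries the receptor Ste2 for the α-factor that α cells secrete. Binding frees the Gβγ dimer of a heterotrimeric G protein, a MAP kinase cascade follows, and the transcription factor Ste12 turns on genes for mating. The cell halts its cycle in G1 through the inhibitor Far1, grows a projection toward its partner, and then fuses its wall, membrane and nucleus with those of the partner. In α cells the receptor is Ste3, the pheromone is α-factor itself, and the MATα locus holds the regulators α1 and α2. A MATα-playing-a strain, as its name says, carries MATα and is made to act as an a cell.

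The marker genes of the 2 cell types followed this description in part. No library listed a value above 0 for STE3, HMRA1 or the α-factor genes MF(ALPHA)1 and MF(ALPHA)2, while STE2, the a-factor exporter gene STE6, the protease gene BAR1 and the a-factor genes MFA1 and MFA2 were above 0 in all 6. MATALPHA1 was above 0 in all 6 libraries too. Other α-cell genes were high without α-factor, SAG1 at 1215 to 1514 FPKM and AFB1 at 3042 to 3764 FPKM. Of the other a-cell genes, AGA2 was listed at 0 in every unstimulated library, and ASG7 was low, as given below. Genes at 0 numbered 574 to 722 per library without and 598 to 621 with α-factor, and Pearson's r of log2(FPKM + 1) between libraries of a group was 0.974 to 0.988. The number of reads per library is unknown, since the files hold no counts, so no counting error could be given. Values are relative levels in bulk RNA, in which fewer cells at a stage of the cycle and less RNA per cell cannot be told apart.

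Changes are given as differences of mean log2(FPKM + 1), stimulated minus unstimulated, with their standard errors, and a fold is the antilog of that difference, which understates the change of low genes. A gene was called where limma gave a 2-sided p below 0.05 after Benjamini-Hochberg adjustment over all 6602 genes. By this rule 4556 genes (69.0%) were called, 1971 (29.9%) as higher and 2585 (39.2%) as lower with α-factor. Of these, 738 genes (11.2%) rose and 499 (7.56%) fell at least 2-fold, and 243 (3.68%) rose and 81 (1.23%) fell at least 4-fold. The groups of 3 did not overlap for 2113 genes that were higher (32.0%) and 2749 that were lower (41.6%). With so many genes called, each count of a gene list below is to be read against these shares, and against the median change over all 6602 genes of -0.10. Rescaling the libraries by median ratios brought that median close to 0 and the calls to 2266 higher and 2207 lower, so the direction of small changes depends on the scaling.

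**Figure D1:**
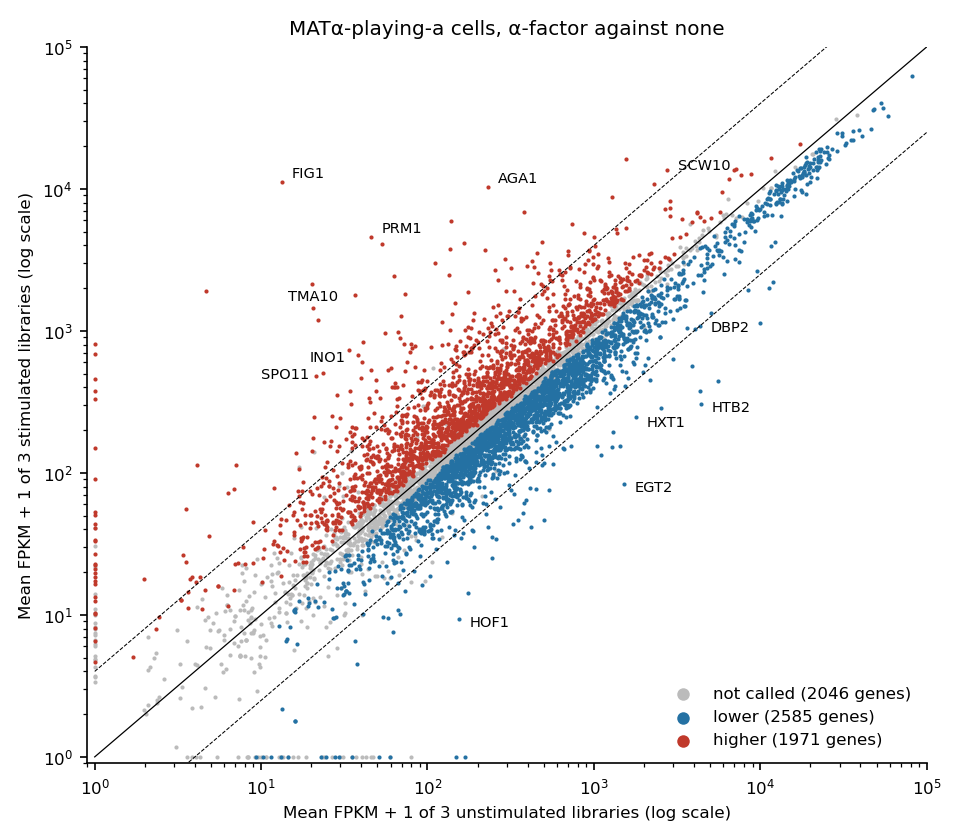
Mean FPKM + 1 over 3 stimulated libraries (vertical, log scale) against the mean over 3 unstimulated libraries (horizontal, log scale) for the 6602 genes, coloured by call, with lines at equal values (solid) and at 4-fold (dashed). FIG1, PRM1 and TMA10 lie farthest above the dashed lines among the labelled genes, and EGT2 and HOF1 far below them. The points along the left and lower edges are genes at 0 in 1 of the groups.

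The genes of the pheromone pathway itself were among those that rose. Of the 23 listed members, 15 were higher, 3 lower and 5 not called, with a median log2 change of 0.91. The receptor gene STE2 (chromosome VI, 82580 to 83875) stood at 633, 550.2 and 512 FPKM without α-factor and 1878, 1651 and 1937 FPKM with it, a rise of 3.23-fold (log2 change 1.69 ± 0.10, adjusted p = 1.1e-07). All 3 stimulated libraries lay above all 3 unstimulated ones. The G protein subunits did not move alike. GPA1, the α subunit that holds the Gβγ dimer, rose 2.21-fold from 887, 914 and 913 to 1917, 2088 and 2010.5 FPKM. STE18, the γ subunit, rose 2.39-fold, whereas STE4, the β subunit, was at 801, 856 and 789.8 FPKM without α-factor and 814, 765 and 793 FPKM with it, and its log2 change of -0.04 ± 0.052 did not pass the test. STE18 overlaps another listed gene, and reads of overlapping genes cannot be told apart here because the strand is unknown. The same limit holds for STE7, CDC42, MATALPHA1, MATALPHA2, MID2, SCW10, CDC6, HAS1, GPH1, GLK1, PDI1, LEU9 and HIS6, named below.

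Further down the cascade, the scaffold gene STE5 and the MAP kinase kinase gene STE7 did not pass the test. Their log2 changes were -0.10 ± 0.072 and -0.20 ± 0.095. The change of the kinase gene STE11, 0.17 ± 0.062, passed the test. That call was lost when any of 3 single libraries was left out (stimulated replicate 3, unstimulated replicates 1 and 3, adjusted p = 0.053 to 0.12). It was also lost in the fit to the 6 libraries alone (adjusted p = 0.076) and with replicate number as a block (adjusted p = 0.069). The MAP kinase gene FUS3 showed a larger change, at 542, 669 and 651 FPKM without α-factor and 2691, 2438 and 2383 FPKM with it, a 4.04-fold rise with no overlap between the groups. KSS1, the second MAP kinase, rose 1.64-fold, and STE12, the transcription factor at the end of the pathway, 1.88-fold. The paired repressors of Ste12 went opposite ways: DIG2 stood at 123, 115 and 126 FPKM without α-factor and 835, 762 and 798 FPKM with it, a 6.52-fold rise, and DIG1 at 709, 699 and 805 FPKM without α-factor and 455, 398 and 397 FPKM with it, a 1.77-fold fall. Both differences were larger than the spread between replicates.

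Genes whose products dampen the signal rose as well. SST2, which speeds the return of the G protein to its resting state, stood at 468, 521 and 489 FPKM without α-factor and 1994, 2021 and 2190.0 FPKM with it, a rise of 4.19-fold. MSG5 and PTP2, phosphatases that act on MAP kinases, rose 3.16-fold and 3.29-fold, and for both the lowest stimulated library was above the highest unstimulated one. PTP3, another such phosphatase, fell 1.6004-fold. AFR1, which acts on the receptor and on projection shape, rose 11.3-fold from 58.9, 89.2 and 64.6 to 899, 615 and 914 FPKM. FAR1, the inhibitor of the G1 cyclin-dependent kinase, rose 2.67-fold.

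Of the 30 genes listed as pheromone-induced, 28 were higher, PRM7 was lower and ASG7 was not called. The median log2 change was 3.18, against -0.10 over all genes, and the members' summed FPKM was 8865 to 10488 without and 92247 to 94866 with α-factor. FIG1 (chromosome II, 316968 to 317864), a membrane protein needed for calcium entry during mating, stood at 11.1, 13.8 and 11.99 FPKM without α-factor and 11082, 11905 and 10388 FPKM with it, a rise of 839-fold (log2 change 9.71 ± 0.17, adjusted p = 4.7e-12). This was the largest rise among genes above 0 in all 6 libraries. PRM6 went from 0, 6.404 and 4.53 to 1869, 1994 and 1863 FPKM, with 1 unstimulated library at 0, and it overlaps YML047W-A. PRM7 ran against its list: it was at 774, 1581 and 1143 FPKM without α-factor and 435, 637 and 448 FPKM with it, a 2.24-fold fall with an adjusted p of 0.00265.

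**Figure D2:**
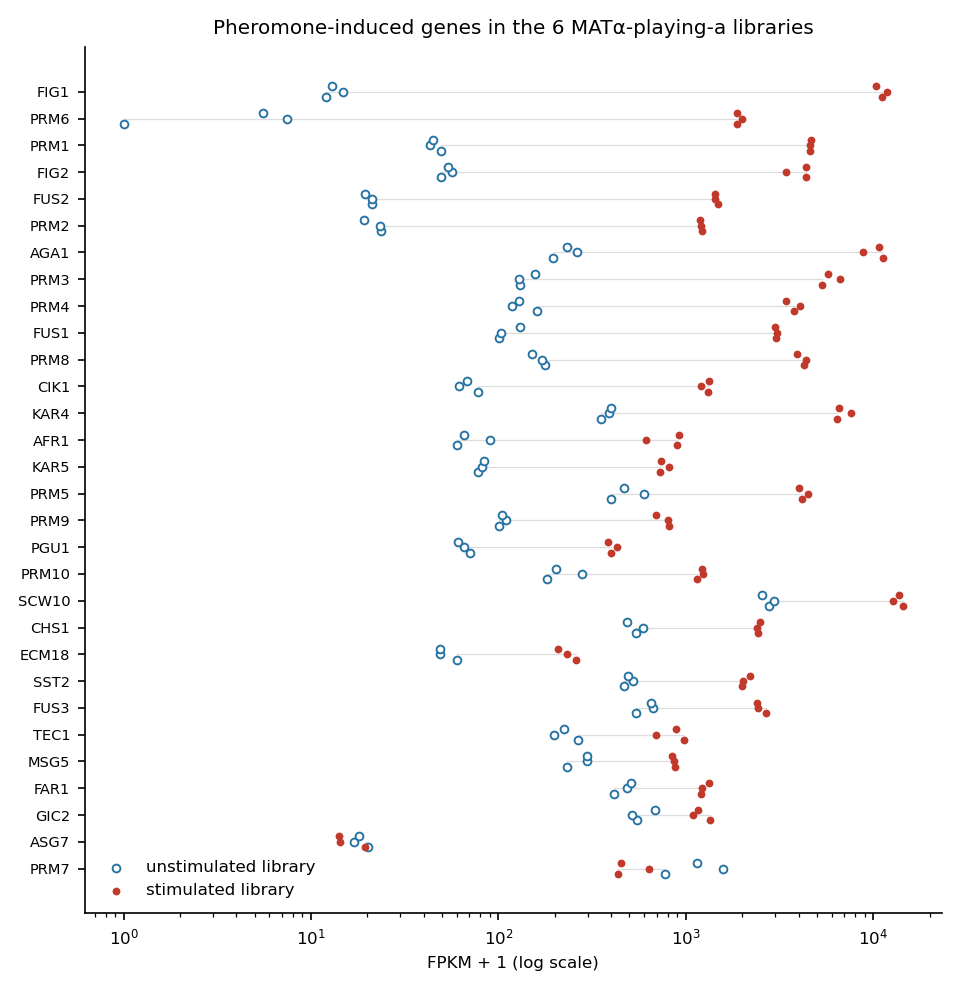
FPKM + 1 (horizontal, log scale) of the 30 listed pheromone-induced genes in each of the 6 MATα-playing-a libraries, ordered by the log2 change. Filled red points are stimulated and open blue points unstimulated libraries. For the 28 genes called higher all filled points lie to the right of all open points, while the points of ASG7 mingle and those of PRM7 are reversed.

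Ste12 binds a short DNA sequence known as the pheromone response element, searched here as TGAAACA on either strand. Its place is shown for the 4 listed genes with the largest changes among those with at least 2 exact matches between 250 and 91 bases before the coding start. These stretches run 5′ to 3′ on the gene's strand, with the matches in capitals (TGTTTCA is the same element read from the other strand). They were read from the R64 RefSeq genome at chrXIV:110667-110826, forward strand, for PRM1, chrXIII:736676-736835, forward strand, for FUS2, chrIII:71553-71712, forward strand, for FUS1 and chrIII:27679-27838, forward strand, for KAR4.
PRM1: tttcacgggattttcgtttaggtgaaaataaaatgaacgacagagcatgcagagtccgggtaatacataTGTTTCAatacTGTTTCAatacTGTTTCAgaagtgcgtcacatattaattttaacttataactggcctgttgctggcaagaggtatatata
FUS2: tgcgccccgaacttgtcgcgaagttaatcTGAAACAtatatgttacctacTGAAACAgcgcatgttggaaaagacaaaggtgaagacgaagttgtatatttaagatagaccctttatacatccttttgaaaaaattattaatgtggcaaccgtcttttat
FUS1: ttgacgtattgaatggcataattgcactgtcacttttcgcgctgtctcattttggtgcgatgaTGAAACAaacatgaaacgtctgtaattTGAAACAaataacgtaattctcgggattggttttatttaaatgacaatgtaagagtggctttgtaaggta
KAR4: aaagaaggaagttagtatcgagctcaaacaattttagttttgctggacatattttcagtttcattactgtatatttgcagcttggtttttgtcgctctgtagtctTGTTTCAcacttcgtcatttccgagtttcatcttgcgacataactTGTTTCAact

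PRM1, which acts in the fusion of the plasma membranes, holds 3 matches and stood at 48.5, 42.3 and 43.98 FPKM without α-factor and 4598, 4583 and 4630.1 FPKM with it, a 100.4-fold rise. FUS2, with 2 matches, acts in cell fusion and stood at 20.2, 20.1 and 18.3 FPKM without α-factor and 1478, 1421 and 1437 FPKM with it, a 70.4-fold rise. FUS1, a membrane protein of the projection tip, rose 27.3-fold from 99.7, 103 and 129.6 to 3033, 3058 and 2993 FPKM. KAR4, a transcription factor for nuclear fusion genes, stood at 354, 389.6 and 396 FPKM without α-factor and 6387, 7576 and 6527 FPKM with it, 17.9-fold higher. In each of these 4 genes the stimulated libraries were separated from the unstimulated ones by more than 10-fold. The same search found no match before FIG1, the gene with the largest rise, in the window from 250 bases before to 50 after its start. FIG2, PRM4 and PRM8 were among the other members without a match. In all, 14 of the 30 members' windows held a match (46.7%, against 7.51% of all windows), and 5 held at least 2.

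The proteins that hold mating cells together and fuse them were among the largest rises. AGA1, the wall anchor of the a-agglutinin, stood at 194, 261 and 231 FPKM without α-factor and 11297, 8807 and 10716 FPKM with it, and FIG2, a wall adhesin, at 48.7, 55.7 and 52.8 FPKM without α-factor and 4397, 3408 and 4394 FPKM with it, rises of 44.8-fold and 75.8-fold. Of 12 cell fusion genes 7 were higher and 5 lower. Of 15 karyogamy genes, which serve the fusion of nuclei, 9 were higher and 6 lower. Among them PRM3, a protein of the nuclear envelope, stood at 129, 128 and 156 FPKM without α-factor and 5360.2, 6632 and 5747 FPKM with it, and CIK1, a partner of the motor protein Kar3, at 76.9, 60.2 and 66.8 FPKM without α-factor and 1313, 1205 and 1323 FPKM with it. KAR5, which acts in fusing the nuclear envelopes, rose 9.34-fold. The groups did not overlap for any of these 3 genes.

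The genes for polarised growth moved far less. Among 29 of them 8 were higher, 11 lower and 10 not called, a balance that turned under rescaling by median ratios to 11 higher and 7 lower. The largest change was that of GIC2, an effector of the GTPase Cdc42, at 546, 515 and 685 FPKM without α-factor and 1348, 1092 and 1154 FPKM with it, a 2.06-fold rise. CDC42 itself, at a log2 change of 0.02 ± 0.077, was not called. Filamentous growth genes, which share part of the MAP kinase cascade, also split, with 5 of 14 higher and 6 lower (under rescaling 5 and 4). PGU1, a secreted pectinase, rose 6.202-fold and the transcription factor gene TEC1 3.71-fold, whereas the flocculin gene FLO11, at 23.7, 23.1 and 21.8 FPKM without α-factor and 12.5, 10.2 and 11.5 FPKM with it, fell 1.93-fold, a call with an adjusted p of 0.017 that was at 0.052 without stimulated replicate 2.

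Of the 7 a-specific genes 5 were higher and none lower, STE2 among them, but most changes were small or rested on single libraries. The call of STE6 was lost under 4 alternatives, among them quantile normalisation and the fit to the 6 libraries alone (adjusted p = 0.056 to 0.14). MFA1, which encodes a-factor, stood at 2909, 3165 and 3865 FPKM without α-factor and 4362, 5024 and 4334 FPKM with it, a rise of 1.39-fold. Its call was lost without stimulated replicate 2 and without unstimulated replicates 1 or 2 (adjusted p = 0.071 to 0.095). MFA2, the other a-factor gene, was at 116, 165 and 221 FPKM without α-factor and 127, 183 and 147 FPKM with it, and its groups overlapped. BAR1 encodes a secreted protease of α-factor and stood at 28.02, 27.8 and 28.2 FPKM without α-factor and 46.4, 54.7 and 51.02 FPKM with it, with a log2 change of 0.83 ± 0.26. That call did not hold with a constant of 0.1 in place of 1 or with a minimum of 10 FPKM (adjusted p = 0.10 in both). ASG7 was at 19.1, 16.02 and 16.98 FPKM without α-factor and 18.4, 13.3 and 13.05 FPKM with it, groups that overlapped. Its log2 change of -0.22 ± 0.13 was not called, though without stimulated replicate 1 it was -0.37 with an adjusted p of 0.015. AGA2, the binding subunit of a-agglutinin, was listed at 0 in all 3 unstimulated libraries while the stimulated ones gave 19.95, 14.5 and 0 FPKM, and its call depended on 2 of them (adjusted p = 0.060 without stimulated replicate 1 or 2). The call of AGA2 was also lost in the fit to the 6 libraries alone (adjusted p = 0.083). With every unstimulated library at 0, a call of AGA2 could only be higher.

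Of the α-cell genes, SAG1, the α-agglutinin of α cells, stood at 1215, 1368 and 1514 FPKM without α-factor and 5595, 4597 and 5459 FPKM with it, a 3.82-fold rise. MATALPHA2, the repressor gene of the MATα locus, rose 3.85-fold from 340.2, 320.4 and 393 to 1256, 1513 and 1298 FPKM. HMLALPHA2 showed nearly the same values, and HMRA2 lower ones, at 180.3, 165 and 205 FPKM without α-factor and 723, 868 and 675 FPKM with it. The 3 share sequence, so the split of reads between them is uncertain. MATALPHA1 was at 297, 255 and 307 FPKM without α-factor and 730.01, 837 and 664 FPKM with it, groups that did not overlap, but its log2 change of 1.37 ± 0.64 did not pass the test (adjusted p = 0.0756). In a fit to the 6 libraries alone it did (adjusted p = 3.1e-05). HO, the endonuclease for mating-type switching, normally transcribed in late G1, was at 379.6, 361 and 436 FPKM without α-factor and 70.2, 56.8 and 64.1 FPKM with it, a 6.08-fold fall.

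Calcium genes and genes that build the wall rose more often than they fell. Of 17 calcium and calcineurin genes 10 were higher and 4 lower, with a median log2 change of 0.55. RCN2, which binds the phosphatase calcineurin, was at 371, 239.99 and 187 FPKM without α-factor and 1527, 1542 and 1499 FPKM with it, and PMC1, the calcium pump of the vacuole, at 96.9, 101 and 89.3 FPKM without α-factor and 288, 262 and 286 FPKM with it, rises of 5.94-fold and 2.89-fold. CMK2, a kinase that calmodulin activates, rose 3.34-fold. The list also holds FIG1.

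The cell wall integrity pathway senses stress on the wall and ends in the MAP kinase Slt2. SLT2 stood at 559, 960.1 and 634 FPKM without α-factor and 2669, 2966 and 2694 FPKM with it, a 3.97-fold rise without overlap. The wall sensor gene MID2 rose 2.85-fold, and RHO1, the GTPase that couples the sensors to kinase and to glucan synthase, 2.26-fold from 2919, 2876 and 2802 to 6231, 7049.6 and 6184 FPKM. In all, 8 of 17 members were higher and 4 lower. Among 24 genes of glucan and chitin synthesis 12 were higher and 6 lower. GSC2, the alternative catalytic subunit of glucan synthase, stood at 60.5, 72.2 and 68.7 FPKM without α-factor and 938, 714 and 1015 FPKM with it, a 12.95-fold rise. The chitin synthase genes split: CHS1 rose 4.54-fold, while CHS2, which makes the septum at division, stood at 215, 215 and 239 FPKM without α-factor and 49.8, 44.6 and 56.2 FPKM with it, a 4.39-fold fall. GFA1, the first enzyme of the path to the chitin precursor, rose 3.91-fold.

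Proteins of the wall itself showed no common direction, with 9 of 25 higher and 10 lower, and 11 and 9 under quantile normalisation. SCW10, a wall protein related to glucanases, was at 2788, 2971 and 2540.3 FPKM without α-factor and 14421, 12812 and 13772 FPKM with it, a 4.94-fold rise. The related PIR genes, which encode proteins linked to wall glucan, moved apart. PIR3 rose 3.72-fold from 194, 202 and 209.7 to 775, 749 and 739.97 FPKM, and PIR1 fell 3.97-fold from 4002, 3824 and 4409.7 to 1082, 1054 and 945 FPKM. PST1, a wall protein made under wall stress, stood at 744, 872 and 810.5 FPKM without α-factor and 2605, 2951 and 2591 FPKM with it, a 3.36-fold rise.

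The genes of the cell cycle fell, with a few exceptions. Of 17 G1 cyclins and regulators 12 were lower and 3 higher. The cyclin gene CLN1 was at 379.5, 368 and 389 FPKM without α-factor and 65.3, 61.04 and 54.6 FPKM with it, a 6.21-fold fall, and PCL1 fell 10.5-fold from 387, 399 and 473 to 53.4, 27.4 and 40.8 FPKM. PCL2, a cyclin of the same kinase Pho85 as Pcl1, went the other way, at 262, 213 and 281 FPKM without α-factor and 2917, 2427 and 2665 FPKM with it, a 10.6-fold rise. YHP1, a repressor of genes of early G1, fell 6.84-fold. For each of these 4 genes the groups were separated by more than the spread within either.

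Among 39 targets of the factors SBF and MBF, which act at the start of S phase, 36 were lower, with a median log2 change of -1.20. MCD1, the cohesin subunit that holds sister chromatids, was at 319, 312 and 349 FPKM without α-factor and 45.1, 39.3 and 43.9 FPKM with it, a 7.503-fold fall. RNR1, the large subunit of ribonucleotide reductase, was at 938, 1068 and 1125 FPKM without α-factor and 165, 121 and 176 FPKM with it, a 6.81-fold fall. MBF binds ACGCGT, the MluI cell cycle box, which is its own reverse complement. Of the members' windows (250 bases before to 50 after the start) 56.4% held it, against 3.08% of the 5979 windows read. The members with 2 boxes between 250 and 91 bases before the start and the largest falls were POL1, the catalytic subunit of DNA polymerase α (chrXIV:429837-429996, forward strand), and RAD27, the flap nuclease of lagging strands (chrXI:225966-226125, reverse strand), shown with the boxes in capitals.
POL1: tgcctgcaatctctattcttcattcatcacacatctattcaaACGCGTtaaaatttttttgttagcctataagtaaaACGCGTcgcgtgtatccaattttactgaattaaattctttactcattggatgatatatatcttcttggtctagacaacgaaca
RAD27: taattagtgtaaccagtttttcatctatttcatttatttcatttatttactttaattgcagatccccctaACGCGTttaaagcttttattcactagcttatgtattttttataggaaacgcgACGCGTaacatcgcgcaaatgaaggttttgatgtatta

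POL1 stood at 112, 106 and 118 FPKM without α-factor and 30.3, 22.1 and 32.3 FPKM with it and RAD27 at 470.4, 440.02 and 524 FPKM without α-factor and 146, 152 and 147 FPKM with it, falls of 3.92-fold and 3.201-fold. All 9 histone genes fell, with a median log2 change of -2.41. HTB2, one of the genes for histone H2B, was at 4484, 3885 and 4869 FPKM without α-factor and 328, 304 and 283 FPKM with it, the largest fall of the family at 14.4-fold. HHO1, the linker histone, showed the smallest, 2.56-fold from 661, 606 and 689 to 249.8, 278 and 235 FPKM. Replication licensing genes fell less, 18 of 21 lower with a median of -0.60. CDC6, the loader of the MCM helicase, showed the largest of these falls, 3.06-fold, and the helicase genes MCM6 and MCM7 fell 2.22-fold and 2.01-fold.

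Genes of later stages fell too. Of 23 G2/M genes 17 were lower, and of 18 genes of the M/G1 interval and daughter cells 13. SWI5, a transcription factor for the exit from mitosis, was at 174, 168 and 184 FPKM without α-factor and 13.5, 12.9 and 13.6 FPKM with it, and CLB1, a mitotic cyclin, at 241, 212 and 276 FPKM without α-factor and 21.98, 25.1 and 25.4 FPKM with it, falls of 12.3-fold and 9.66-fold. DSE4, a glucanase that separates daughter from mother, fell 4.29-fold. Forkhead factors bind GTAAACA, and 12 of the 23 G2/M windows held it (52.2%, against 6.57% of all). The members with a match and the largest falls were HOF1, which acts at the bud neck in cytokinesis (chrXIII:335048-335207, forward strand), and BUD4, a landmark of the bud neck (chrX:598485-598644, forward strand), with the match in capitals.
HOF1: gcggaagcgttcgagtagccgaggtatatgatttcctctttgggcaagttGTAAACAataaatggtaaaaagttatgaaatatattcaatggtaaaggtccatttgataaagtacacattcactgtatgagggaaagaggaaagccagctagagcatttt
BUD4: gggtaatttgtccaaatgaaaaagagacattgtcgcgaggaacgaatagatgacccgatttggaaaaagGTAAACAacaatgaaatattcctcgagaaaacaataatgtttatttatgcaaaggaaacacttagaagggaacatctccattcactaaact

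HOF1 was at 159.97, 142 and 161 FPKM without α-factor and 8.06, 6.89 and 10.3 FPKM with it, a 16.7-fold fall, and BUD4 at 102, 94.9 and 112 FPKM without α-factor and 20.5, 13.96 and 18.97 FPKM with it, a 5.59-fold fall. Spindle and kinetochore genes were mostly lower, 14 of 20, among them the motor gene CIN8 (2.61-fold) and the γ-tubulin gene TUB4 (2.53-fold). SLI15, which activates the Aurora kinase Ipl1, rose 2.89-fold from 89.6, 78.3 and 86.3 to 275, 221 and 246 FPKM. Of 16 septin and bud-site genes 11 were lower, BUD9 and RAX2, landmarks of the cell poles, by 3.71-fold and 2.67-fold.

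**Figure D3:**
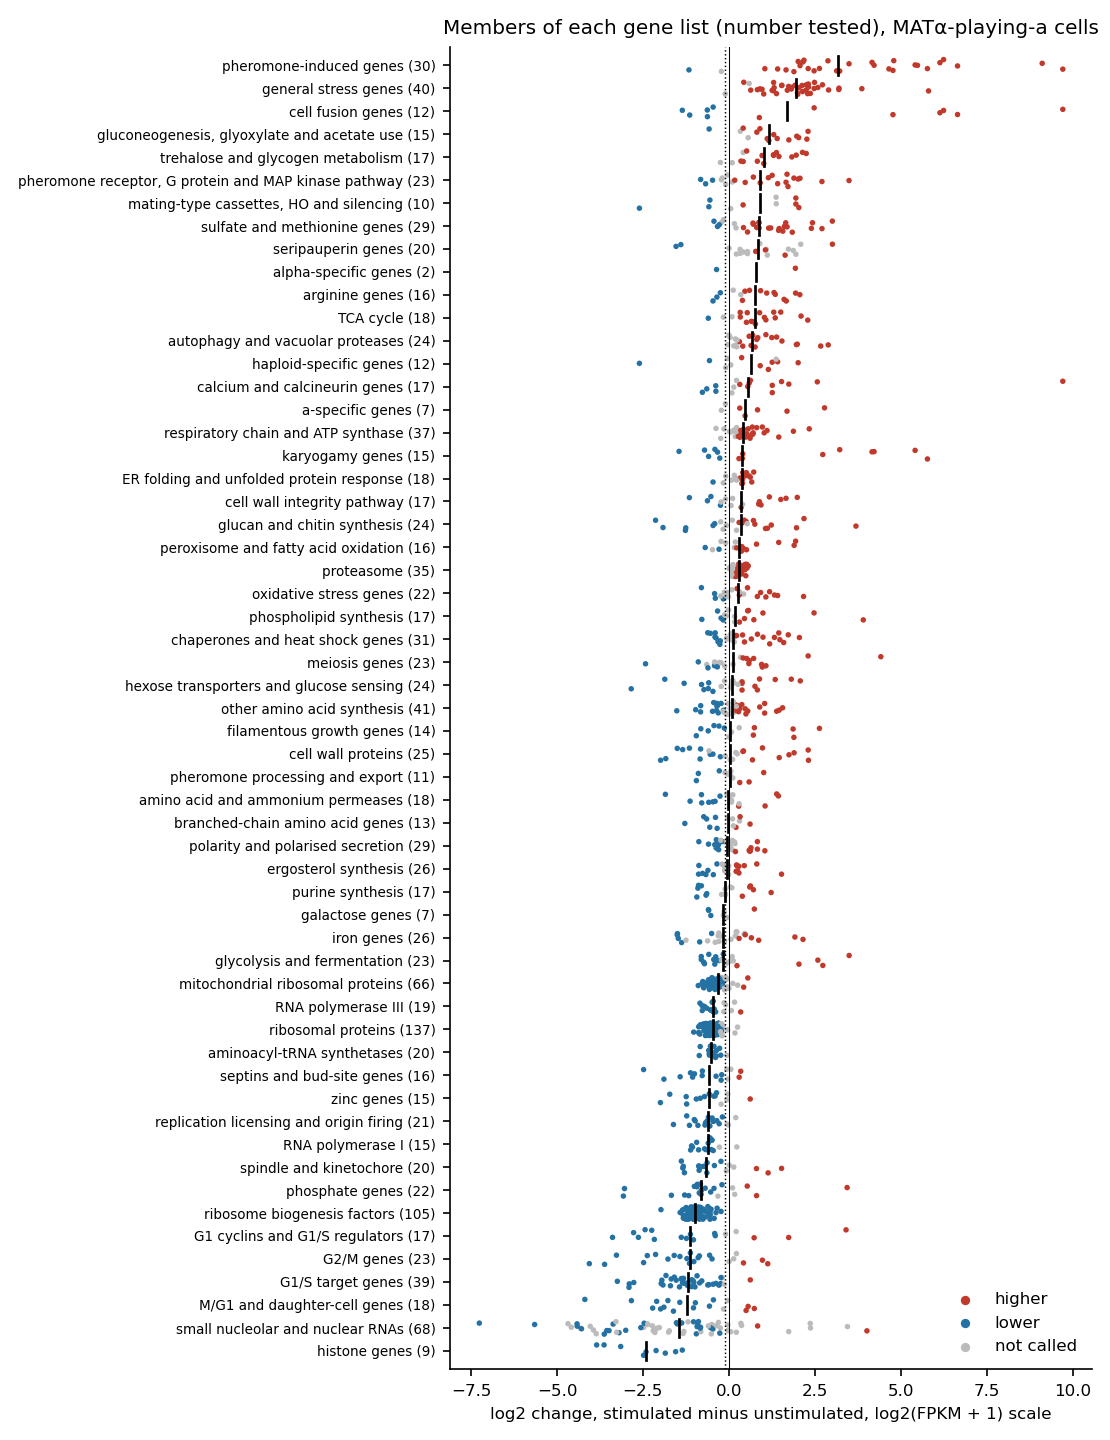
Log2 change, stimulated minus unstimulated, on the log2(FPKM + 1) scale for each tested member of each gene list, coloured by call. Black bars are list medians, the number of tested members is in brackets, and the dotted line is the median of all 6602 genes (-0.10). Pheromone-induced and general stress genes lie highest, and histone, M/G1 and G1/S genes lowest apart from the widely scattered small RNAs.

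Genes for making ribosomes fell as a body. All 105 ribosome biogenesis factors were called lower, with a median log2 change of -0.99. DBP2, an RNA helicase, was at 3361, 5313 and 4412 FPKM without α-factor and 1027, 1166 and 1078 FPKM with it, a 3.94-fold fall, and RPF2, which acts in making the large subunit, fell 2.51-fold. These genes carry the PAC element, whose core was searched as GATGAG. It lay in 95 of their 105 windows (90.5%), against 20.4% of all windows. Among members with at least 2 matches in the stretch shown, KRE33, an RNA acetyltransferase for ribosomal RNA (chrXIV:375071-375230, forward strand), and HAS1, an RNA helicase (chrXIII:851682-851841, reverse strand), fell most. In both, the capitals hold a pair of matches that overlap by 1 base.
KRE33: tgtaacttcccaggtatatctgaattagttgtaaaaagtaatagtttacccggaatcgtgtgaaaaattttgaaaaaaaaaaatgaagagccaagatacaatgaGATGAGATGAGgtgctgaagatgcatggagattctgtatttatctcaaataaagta
HAS1: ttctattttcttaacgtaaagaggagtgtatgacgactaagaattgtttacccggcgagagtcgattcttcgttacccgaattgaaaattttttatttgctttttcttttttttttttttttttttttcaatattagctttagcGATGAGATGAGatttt

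KRE33 stood at 431, 611 and 546 FPKM without α-factor and 228, 173 and 228 FPKM with it and HAS1 at 1279.5, 1563 and 1454 FPKM without α-factor and 566, 561 and 589.98 FPKM with it, falls of 2.51-fold and 2.49-fold. Of 137 ribosomal protein genes 126 were lower and none higher, with a median log2 change of -0.47. That fall depends on the scaling: under quantile normalisation 34 were lower and 14 higher, with a median of -0.075. These genes made up 34.5 to 37.2% of the summed FPKM without and 29.2 to 30.4% with α-factor. RPS21A, a protein of the small subunit, showed the largest fall, from 18315, 16073 and 21957 to 8363, 8551 and 10715 FPKM. The mitochondrial ribosomal proteins (42 of 66 lower), RNA polymerase I (13 of 15), RNA polymerase III (13 of 19) and the tRNA synthetases (18 of 20) had more members lower than higher under both of the other scalings too. RPA190, the largest subunit of polymerase I, fell 2.17-fold. Of 79 rows for small nucleolar and nuclear RNAs 68 passed the filter, of which 27 were lower, 2 higher and 39 not called. This share of lower rows was near the 39.2% of all 6602 genes. snR66, a row of 86 nt, was at 181, 83.6 and 233 FPKM without α-factor and listed at 0 with it, so a call could only be lower.

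Genes of the general stress response and of energy stores rose. Of 40 general stress genes 38 were higher and none lower, with a median log2 change of 1.96. SIP18 and YGP1, at log2 changes of 0.59 ± 0.37 and -0.11 ± 0.12, were not called. TMA10 stood at 63.1, 24.5 and 18.8 FPKM without α-factor and 1789, 2035 and 1554 FPKM with it, a 55.9-fold rise, with unstimulated replicate 1 well above the other unstimulated libraries and still far below the stimulated ones. RTC3 rose 14.6-fold from 74.9, 64.3 and 58.6 to 1090.4, 852 and 985 FPKM. The stress response element AGGGG, bound by Msn2 and Msn4, lay in 65% of the 40 members' windows and in 21.7% of all windows. It is shown in capitals (CCCCT from the other strand) for the members with at least 2 matches and the largest rises, HSP42 (chrIV:806371-806530, forward strand) and HSP12 (chrVI:107006-107165, forward strand).
HSP42: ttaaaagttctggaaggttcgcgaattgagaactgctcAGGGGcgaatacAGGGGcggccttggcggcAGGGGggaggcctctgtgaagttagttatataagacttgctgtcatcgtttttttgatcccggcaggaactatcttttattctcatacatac
HSP12: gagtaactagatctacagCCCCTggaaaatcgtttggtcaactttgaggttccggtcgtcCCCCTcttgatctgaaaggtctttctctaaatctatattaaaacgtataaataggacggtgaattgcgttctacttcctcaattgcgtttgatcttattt

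HSP42, a small heat shock protein, stood at 98.9, 68.01 and 65.05 FPKM without α-factor and 710.4, 701 and 709 FPKM with it, a 9.203-fold rise. HSP12, a membrane-binding stress protein, was at 278, 609.5 and 377 FPKM without α-factor and 2568, 4246 and 2447 FPKM with it, a 7.46-fold rise with a wider spread and no overlap. The chaperones as a whole split, 14 of 31 higher and 9 lower, and SSE2, an Hsp110 chaperone, rose 4.14-fold. Among 22 oxidative stress genes 10 were higher and 4 lower. The glutaredoxin gene GRX1 was at 1085, 929 and 991 FPKM without α-factor and 4154, 5506 and 3996 FPKM with it, a 4.503-fold rise.

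In trehalose and glycogen metabolism 14 of 17 genes were higher and none lower. GPH1, which breaks down glycogen, rose 4.75-fold and NTH1, which breaks down trehalose, 4.41-fold. Genes that glucose normally represses rose as well. Of 15 genes of gluconeogenesis and of glyoxylate and acetate use 12 were higher, of 18 TCA cycle genes 15 and of 37 genes of the respiratory chain and ATP synthase 25. ADR1, an activator of glucose-repressed genes, was at 17.8, 16.998 and 15.7 FPKM without α-factor and 89.1, 73.5 and 92.8 FPKM with it, a 4.81-fold rise. The citrate synthase gene CIT1 was at 372, 254 and 276 FPKM without α-factor and 1327, 1288 and 1208 FPKM with it, and JEN1, a lactate transporter, at 46.7, 41.2 and 34.1 FPKM without α-factor and 148, 199 and 161 FPKM with it, rises of 4.28-fold and 4.08-fold without overlap.

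Glycolysis as a list had no direction that held under both scalings, with 5 of 23 genes higher and 12 lower as deposited and 9 and 4 under quantile normalisation. Minor isozymes showed the largest changes. PDC6, the minor pyruvate decarboxylase, rose 11.3-fold from 4.804, 7.54 and 5.199 to 65.8, 86.998 and 74.2 FPKM. GLK1, glucokinase, stood at 285, 235 and 220.2 FPKM without α-factor and 1511, 1467 and 1453 FPKM with it, and PYK2, the minor pyruvate kinase, at 73.5, 59.8 and 48.04 FPKM without α-factor and 406, 411 and 387 FPKM with it, rises of 6.01-fold and 6.64-fold. Hexose transporters split. HXT1, the transporter for high glucose, was at 1561, 1869.8 and 1937 FPKM without α-factor and 229, 253 and 262 FPKM with it, a 7.17-fold fall, and HXT9 and HXT11, whose sequences are close to each other, rose 4.22-fold and 3.52-fold. MIG3, a repressor of the glucose pathway, fell 3.65-fold.

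Genes of protein turnover rose. Of 24 genes of autophagy and vacuolar proteases 16 were higher and none lower. ATG8, the protein that builds the autophagosome membrane, was at 129, 130.1 and 147 FPKM without α-factor and 914, 1092 and 1026 FPKM with it, a 7.41-fold rise. PRB1 and PEP4, the main proteases of the vacuole, rose 6.37-fold and 3.896-fold. Of 35 proteasome genes 27 were higher, none lower, and the largest change was 1.48-fold, of RPN12. Of 18 genes of protein folding in the endoplasmic reticulum 11 were higher, PDI1, the disulfide isomerase, by 1.58-fold.

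Amino acid pathways went different ways. Of 29 sulfate and methionine genes 21 were higher and 3 lower, with a median log2 change of 0.87. MET3, ATP sulfurylase, was at 343, 232 and 310.5 FPKM without α-factor and 1925, 1965 and 1837 FPKM with it, and STR3, cystathionine β-lyase, at 64.1, 29.6 and 51.1 FPKM without α-factor and 375, 353 and 406 FPKM with it, rises of 6.53-fold and 8.05-fold. Unstimulated replicate 2 was the lowest library for both, and all stimulated libraries lay above all unstimulated ones. Of 16 arginine genes 11 were higher, both in synthesis and in breakdown: ARG4, argininosuccinate lyase, rose 3.84-fold and CAR1, arginase, 3.18-fold. Of 13 branched-chain genes 3 were higher, 6 lower and 4 not called, with a median log2 change of -0.04. This share of lower genes was near the 39.2% of all 6602 genes. LEU9, for α-isopropylmalate synthase, fell 2.43-fold. Among the other pathways HIS4, in histidine synthesis, rose 2.95-fold from 194, 213 and 212 to 579.6, 626 and 627 FPKM, while HIS6 of the same pathway fell 2.86-fold from 366, 347 and 362 to 131, 124 and 119 FPKM, with another listed gene overlapping it. The permease gene TAT1, for aromatic and branched-chain amino acids, fell 3.599-fold and the ammonium permease gene MEP1 rose 2.71-fold.

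Phosphate and zinc genes were mostly lower. Of 22 phosphate genes 16 were lower and 3 higher. PHO5, the secreted acid phosphatase, was at 456, 386 and 497 FPKM without α-factor and 131, 145 and 139.6 FPKM with it, a 3.19-fold fall, and its near-identical relatives PHO11 and PHO12, which cannot be told apart with certainty, fell 8.21-fold and 8.39-fold. PHO89, a sodium phosphate transporter, ran against the list at 167, 115 and 151 FPKM without α-factor and 1392, 1639 and 1659.8 FPKM with it, a 10.8-fold rise. Of 15 zinc genes 11 were lower. ZRT1, the high-affinity zinc importer, was at 568, 872 and 711 FPKM without α-factor and 269, 372 and 264 FPKM with it, and ZRC1, which stores zinc in the vacuole, at 1727, 1862 and 1831 FPKM without α-factor and 769, 787 and 752 FPKM with it, falls of 2.37-fold and 2.35-fold. Iron genes showed no common direction, 6 of 26 higher and 6 lower. HMX1, heme oxygenase, rose 4.45-fold and FRE1, a surface reductase, fell 2.82-fold.

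Of 17 phospholipid genes 8 were higher, 4 lower and 5 not called. INO1, inositol phosphate synthase, stood at 35.3, 44.4 and 37.7 FPKM without α-factor and 657, 581 and 563 FPKM with it, a 15.01-fold rise, and OPI3, a methyltransferase of phosphatidylcholine synthesis, at 458, 429 and 493 FPKM without α-factor and 2571, 2677 and 2437 FPKM with it, a 5.56-fold rise. The inositol transporter gene ITR2 fell 1.73-fold. Of 26 ergosterol genes 9 were higher and 7 lower (7 and 9 under quantile normalisation), and ERG24, the C-14 reductase, showed the largest change, 2.89-fold higher.

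Of 23 meiosis genes 10 were higher, 5 lower and 8 not called, a balance of 9 and 9 under quantile normalisation. SPO11, whose product makes the DNA breaks of meiotic recombination, was at 21.2, 24.8 and 21.9 FPKM without α-factor and 481, 556 and 477 FPKM with it, a 21.4-fold rise with no overlap. IME4, an RNA methyltransferase for entry into meiosis, was at 166, 178 and 192 FPKM without α-factor and 873, 947 and 835 FPKM with it, a 4.94-fold rise. DMC1, a meiotic recombinase, rose 2.11-fold and the regulator gene NDT80 1.96-fold, while SPS4, a late sporulation gene, fell 5.37-fold. Of the 10 markers of sporulating diploid cells 4 were higher, 2 lower and 4 not called, the inducers IME1 and IME2 among the last at log2 changes of -0.12 ± 0.14 and -0.64 ± 0.29, and none was at 0 in any library. Their median log2 change was -0.18. Their summed FPKM was 420.4 to 446 without and 884 to 993 with α-factor, sums that include the values of SPO11 given above. The part of other cell types in these values was not tested.

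Retrotransposon rows and some rows at 0 were among the largest rises. YGR109W-B, which RefSeq annotates as a gag-pol fusion protein, was at 74.3, 73.6 and 68.5 FPKM without α-factor and 2064, 1414 and 2014 FPKM with it, a 24.7-fold rise. YIL080W, which overlaps 2 other listed rows and has no entry in RefSeq, was at 53.5, 72.3 and 59.7 FPKM without α-factor and 2799, 1933 and 2633 FPKM with it. YCL074W and YCL075W, annotated as pseudogenes with fragments of a Ty Pol protein, were listed at 0 in every unstimulated library. With α-factor YCL074W stood at 494, 386 and 496 FPKM and YCL075W at 417, 322 and 386 FPKM. Reads of Ty copies can be placed at more than 1 locus, so the source of these reads is uncertain. In all, 28 genes called higher were at 0 in every unstimulated library and 14 called lower were at 0 in every stimulated one, 6 of each under 200 nt long. Such genes passed the filter through the group where they are high, which fixed their direction, so these counts are a description only. YML047W-A, which overlaps PRM6, and YNL042W-B, which overlaps a proline tRNA gene, were also in the first set.

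To see where the response was particular to these cells it was set against that of MATa cells in the same model. Across the 6602 genes Pearson's r of both log2 changes was 0.867, over genes that are not independent. Of the 243 genes that rose at least 4-fold 215 were called higher in MATa cells too, against 1884 (28.5%) of all 6602. Of the 81 genes that fell at least 4-fold 74 were called lower in MATa cells, against 2517 (38.1%) of all. The difference of the responses was called for 32 genes (0.485%). The log2 change in MATα-playing-a cells, sign included, was higher in 27 (0.409%) and lower in 5 (0.0757%), so a smaller fall counts as higher. Without unstimulated replicate 1 the counts were 17 and 8. The largest was that of ASG7, an a-specific gene that dampens signalling after fusion. In MATa cells it went from 128, 108 and 101 to 8049, 8740.2 and 7591 FPKM, a log2 change of 6.17, and the difference of the responses was -6.39 ± 0.19 (adjusted p = 1.0e-08). In MATα-playing-a cells, as given above, the groups overlapped.

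**Figure D4:**
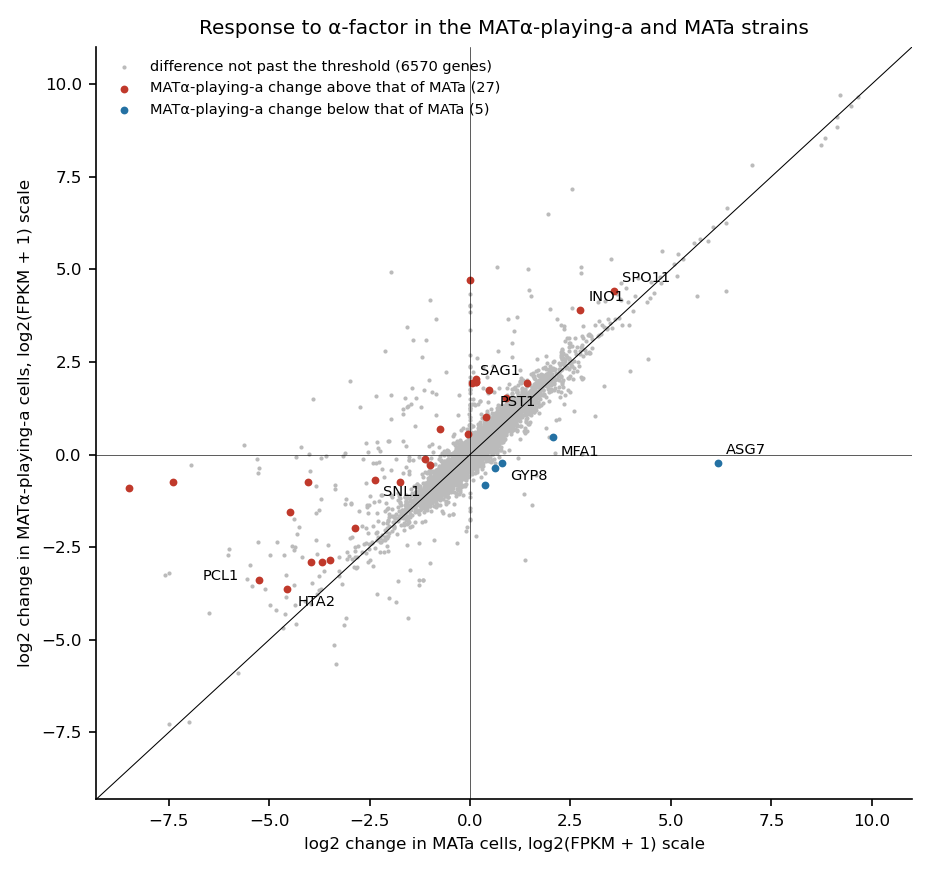
Log2 change with α-factor in MATα-playing-a cells (vertical) against that in MATa cells (horizontal) for the 6602 genes, both on the log2(FPKM + 1) scale, with a line at equal changes. Red and blue points are the 32 genes whose responses differed past the threshold, and 10 of them are named. ASG7 and MFA1 lie to the right of the line, and SAG1 above it near a MATa change of 0.

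MFA1 rose more in MATa cells, from 8785, 8527 and 5406 to 32534, 30639 and 29259.5 FPKM, with a difference of -1.58 ± 0.24. SAG1 was at 98.4, 115 and 118 and 124, 112 and 107 FPKM in MATa cells, groups that overlapped, and its difference was 1.88 ± 0.15 (adjusted p = 1.3e-04). MATALPHA2, HMLALPHA2 and HMRA2 differed likewise, by 1.79, 1.79 and 1.87. AFB1, the a-factor barrier protein of α cells, fell in MATα-playing-a cells and differed by -0.98 ± 0.17. Its fall was not called in 3 of the 6 fits that left out 1 library (stimulated replicate 3, unstimulated replicates 2 and 3, adjusted p = 0.056 to 0.094). Nor was it called under rescaling by median ratios (adjusted p = 0.0775).

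Some genes with a called difference lie beside a mating gene. GYP8 is the neighbour of STE2 on chromosome VI, 667 bases away, and differed by -1.01. SNL1 is the neighbour of BAR1 on chromosome IX, 408 bases away, and differed by 1.68. BAR1 was listed at 0 in all 6 MATa libraries. APL1 is the neighbour of SAG1 on chromosome X, 1061 bases away, and differed by 0.60 ± 0.090 (adjusted p = 0.0122). YLR041W overlaps AFB1 and differed by -1.18, and YDR008C overlaps TRP1, a tryptophan synthesis gene, and differed by 1.44. The neighbours APL1 and TRP1 were looked up after the called genes were known. Reads of the overlapping pairs cannot be told apart, and the part of the neighbouring gene in these values was not tested.

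Other differences concerned genes of growth and division. The falls of the S phase genes MCD1, TOS4 and HTA2 and of the cyclin genes PCL1 and PCL9 were smaller in MATα-playing-a than in MATa cells. The differences were 0.78, 1.05, 0.92, 1.87 and 0.65. Most members of their lists had no called difference. It was called in 3 of 39 G1/S targets, 1 of 9 histone genes, 1 of 17 G1 cyclins and regulators and 3 of 18 M/G1 genes. Median log2 changes in MATα-playing-a and MATa cells were -1.20 and -1.03 for G1/S targets and -1.12 and -0.91 for G2/M genes. For histone genes they were -2.41 and -2.54, so the lists had no common direction of difference. For HTA2, a histone H2A gene, the stimulated libraries stood at 449.6, 450.1 and 438 FPKM in MATα-playing-a cells and at 273, 275 and 253 FPKM in MATa cells. INO1 and SPO11 rose more in MATα-playing-a cells, by 1.16 ± 0.15 and 0.84 ± 0.15. PST1 rose more in MATα-playing-a cells and was at 731, 1054 and 783 and 1102, 1425 and 1042 FPKM in MATa cells, a difference of 1.27 ± 0.21. PIR1 fell less, by a difference of 0.87 with an adjusted p of 0.0499.

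Across all promoters the motif shares followed the size and direction of the change in part. The pheromone response element lay in 12.1% of the 214 windows of genes that rose at least 4-fold and in 7.51% of all windows. It also lay in 9.62% of the 52 windows of genes that fell at least 4-fold. Of the 22 tested genes with 2 elements 12 were called higher (54.5%), against 30.6% of the 5433 with none, and the only gene with 3 was PRM1. Among the 22 are MATALPHA2 and HMLALPHA2, called higher, and MATALPHA1 and HMLALPHA1, not called, pairs that share sequence. The stress response element lay in 41.1% of the genes that rose at least 4-fold and 40.3% of those that rose 2- to 4-fold. It lay in 14.5% of those that fell 2- to 4-fold and 19.2% of those that fell at least 4-fold, against 21.7% of all windows. For the PAC core the share was 40.1% among genes that fell 2- to 4-fold and 9.62% (5 windows) among the 52 that fell at least 4-fold. Forkhead matches lay in 11.1% and 13.5% (7 windows) of the same groups, against 6.57% of all windows. The cell cycle boxes ACGCGT and CGCGAAA (the SBF site) were in 10.5% and 11.4% of genes that fell 2- to 4-fold, against 3.08% and 3.61% of all windows. Among the genes that fell at least 4-fold each was in 3.85%. The Cbf1 site CACGTG and the Gcn4 core TGACTC lay in 1.87% and 7.01% of genes that rose at least 4-fold, against 2.91% and 7.99% of all windows, and in 8 of 29 sulfate and methionine genes and 8 of 16 arginine genes. A match is a description of the sequence and not of binding.

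**Figure D5:**
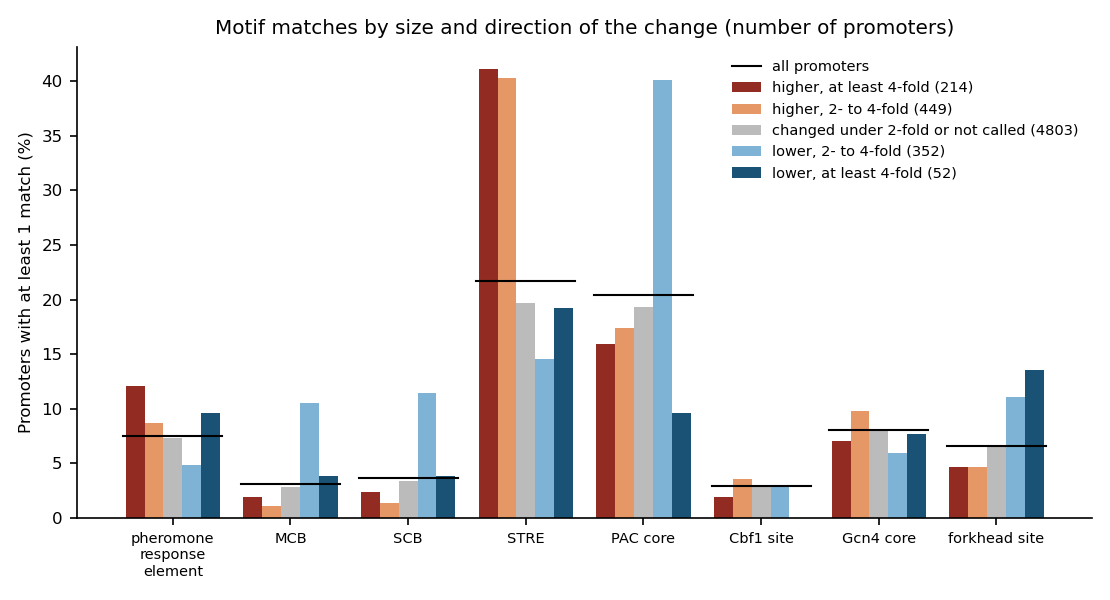
Share of promoter windows (vertical, percent) with at least 1 match to each motif, for genes grouped by call and size of the log2 change, with the number of windows in brackets. Black lines give the share of all 5979 windows. Bars for the stress response element (STRE) are highest among genes that rose, and those for the PAC core among genes that fell 2- to 4-fold.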

How the data were processed

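The 12 yeast RNA libraries shared 1 sequencing lane, per the labels. For each gene the authors deposited FPKM, without counts. TopHat 1.1.4, Cufflinks 0.9.3 and CASAVA 1.8.2 are listed in the submitters' processing notes, and the genome build is not given in the sources used here. Depth per library is therefore unknown, and the FPKM sums point to a further scaling whose source is unknown, so levels are relative. Gene IDs were matched to the R64 RefSeq annotation (6048 of 7126, 6036 with the same coordinates).

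Genes with a mean of at least 1 FPKM over the 6 MATα-playing-a libraries were tested on log2(FPKM + 1) with limma 3.58.1, in 1 model of 4 group means over all 12 libraries, with an intensity trend and Benjamini-Hochberg adjustment at 0.05. p-values measure the spread between biological replicates, pooled over the 4 groups and so over both strains, with each cell type as 1 strain. The code was tested on simulated data. The named genes were up to 15 per direction with the largest changes, up to 4 per list, all members of 6 lists on mating and histones, up to 8 per direction for the difference of the responses and up to 4 per direction at 0 in a group. CDC42, IME1, IME2, SIP18, YGP1, HSP12, POL1, RAD27, KRE33, HAS1, APL1 and TRP1 fall outside that rule and were chosen after their values were seen. The members, the 60 lists and the tests were chosen with earlier results of these data known, and RPP1 and MRP8 were taken off the ribosomal lists after values were seen. Promoters were read from R64, from 250 bases before to 50 after the coding start. Alternatives were constants of 0.1 and 10, a minimum of 10 FPKM or none, genes under 200 nt left out, no trend, rescaling by median ratios, quantile normalisation, the 6 libraries alone, a replicate block and each library left out in turn.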

Additional observations from a re-analysis of the deposited data

Results flagged for a closer look

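In 20 named genes the response to α-factor differed between MATα-playing-a and MATa cells in limma's test of the difference itself, with an adjusted p below 0.05. The values are log2 changes in MATα-playing-a minus MATa cells. They were -6.386 for ASG7, -1.585 for MFA1, -0.981 for AFB1, -1.180 for YLR041W and -1.011 for GYP8. The response lay higher by 1.882 for SAG1, 1.874 for HMRA2, 1.786 for HMLALPHA2 and 1.787 for MATALPHA2. It also lay higher by 0.917 for HTA2, 1.868 for PCL1, 0.780 for MCD1, 1.051 for TOS4 and 0.647 for PCL9. The remaining values were 0.867 for PIR1, 1.160 for INO1, 0.845 for SPO11, 1.684 for SNL1, 1.436 for YDR008C and 1.267 for PST1. SNL1, at 699, 628 and 628 FPKM without α-factor and 381, 461 and 378 FPKM with it, fell in both strains and by less in MATα-playing-a cells. PIR1 and YDR008C lay close to the threshold, with adjusted p of 0.0499 and 0.0474.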

How the results depend on the processing

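No named gene that was called changed sign under the alternatives that were run. Of the counts over all genes, 120 stayed within 1.5 times the main count while 5 did not. The genes with a negative difference, MATα-playing-a minus MATa, numbered 5, and 8 under quantile normalisation. Leaving out each library in turn gave 4219 to 4356 calls, 1848 to 1891 higher and 2371 to 2490 lower, 712 to 744 and 445 to 563 of them at least 2-fold. It gave 22 to 28 differences of the responses, 17 to 23 positive and 4 to 8 negative. With replicate number as a block 15 differences were called in place of 32, and 11 positive ones in place of 27. The numbers were not shown to pair the samples: the correlation of deviations between samples with the same number was -0.239, -0.139 and -0.067 in MATα-playing-a and 0.113, -0.020 and 0.247 in MATa cells. The fit to the 6 libraries alone cannot give the difference of the responses. Of the values for named genes, 34 lost and 9 gained a call under some setting while 4363 did not, and for 6 of 60 lists another scaling turned the larger count. Depth is unknown. Among genes at 1 to 10 FPKM 21.6% were called, with a median standard error of 0.894, so that changes of low genes were often not detectable.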
